A study of Mus musculus with 24 samples.

Results

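Calcium/calmodulin-dependent protein kinases were followed through 10 genes, Camk1, Camk1d, Camk1g, Camk2a, Camk2b, Camk2d, Camk2g, Camk4, Camkk1 and Camkk2, out of 37991 gene identifiers counted in mouse cerebellum. The genes were selected by symbol as a gene family, and the list was chosen on earlier results of these same libraries, namely the CPM of each library and the difference between 79 and 7 weeks. The age differences below are therefore a description of the members, and their p-values, which come from a fit over all genes, support no claim about the family. The inbred strain was C57BL/6J and the cerebella were from males, taken at 7 weeks (young adult) and 79 weeks (aged), with 2 mRNA libraries per age and no treatment or engineered allele named in the labels. The series holds 24 samples, and its 20 genomic DNA samples of cerebellum and cortex were not analysed here.

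When calcium enters a neuron it binds calmodulin, and the complex switches on these kinases by lifting an inhibitory segment off the catalytic domain. CaMKK1 and CaMKK2 act upstream: besides binding calmodulin themselves, they phosphorylate the activation loop of CaMKI and CaMKIV, and CaMKK2 also phosphorylates the energy sensor AMPK. CaMKIV works largely in the nucleus, where it phosphorylates the transcription factor CREB, and in the cerebellum it is known as an abundant protein of granule neurons. CaMKII is a large ring of subunits from 4 genes that, once active, phosphorylates its own subunits and can stay active after calcium has fallen. It is a main kinase of the postsynaptic density, and in the cerebellum the beta subunit is known to outweigh the alpha subunit that dominates in the forebrain.

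The libraries held 16367656 to 22826993 reads on genes, and 15292 genes passed a filter on low counts, all 10 kinases among them. Counts of the members ran from 207 for Camk1g in 7-week replicate 1 to 27220 for Camk4 in 7-week replicate 2. Levels are given as CPM, each count divided by its TMM-scaled library total. They can be compared between libraries but not between genes, since they are not divided by transcript length. Whether replicate libraries stem from different animals is not in the labels, and the spread on which the p-values rest could be technical. 79-week replicate 1 stood apart, with markers of choroid plexus, the tissue that makes cerebrospinal fluid, summing to 6716 CPM against 159.4 to 175.2 CPM in the other libraries. In bulk tissue, fewer cells of a type and less RNA per cell cannot be told apart.

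At 79 weeks Camk4 fell by 40.1%, Camkk2 fell by 39.5% and Camk2d fell by 20.3%, relative to 7 weeks. In edgeR's quasi-likelihood test, with adjustment over all 15292 genes and a threshold of 0.05, 3 members were lower, 0 were higher and 7 were not called. DESeq2 and limma-voom also called 3 lower and 0 higher. Over all genes DESeq2 called 754 lower and 508 higher, and limma-voom 674 lower and 539 higher. At an unadjusted p under 0.05 edgeR had 3 members higher and 5 lower. Of all 15292 genes 4084 were under that limit in either direction, the background for every later count at an unadjusted p. With adjustment, edgeR called 8.84% of all genes, 4.17% higher and 4.68% lower. Nothing is read from the members' counts against these backgrounds, because the list was drawn up with this contrast known. With scaling by library size alone, 901 genes were called higher and 484 lower, against 637 and 715 in the fit used here, and the members counted 2 higher and 2 lower. The ages did not overlap in any of the 10 members, as in 57.7% of all genes tested. The median log2 fold change of the members was -0.14, with 6 below 0 and 4 above, beside a median of 0.01 over all genes tested.

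**Figure D1:**
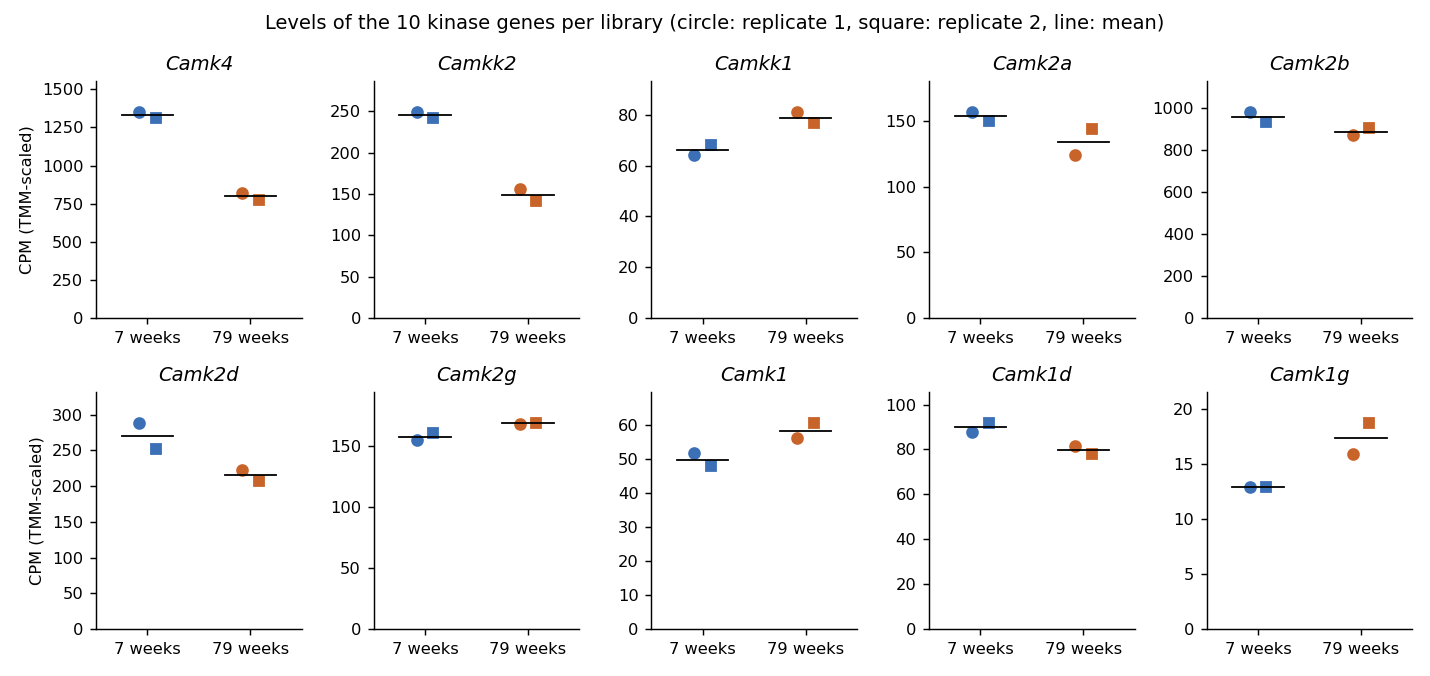
Level of each kinase gene in CPM (TMM-scaled, linear axis from 0) in every library, with 7 weeks in blue and 79 weeks in orange, circles for replicate 1, squares for replicate 2 and a line at the mean of 2 libraries. Camk4 went from 1351 and 1314 CPM to 822 and 775 CPM and Camkk2 from 249 and 242 CPM to 156 and 141 CPM, while the panels of Camk2b and Camk2g show changes under 10%.

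Of the upstream kinase genes, one fell and the other did not. Camkk2 (ENSMUSG00000029471), which encodes the CaMKK that also acts on AMPK, stood at 248.9 and 241.7 CPM in the 7-week libraries and at 155.5 and 141.3 CPM in the 79-week libraries. Both aged libraries were far below both young ones, and the gap between ages was far wider than the gap between replicates. Its mean went from 245 ± 5.09 to 148 ± 10.1 CPM (SD, n = 2 per age), a log2 fold change of -0.73 (SE 0.06, adjusted p = 0.00318). Camkk1 (ENSMUSG00000020785), the other CaMKK gene, stood at 63.99 and 68.04 CPM at 7 weeks and at 81.05 and 76.61 CPM at 79 weeks. It was higher in each aged library but was not called (log2 fold change 0.25, SE 0.07, adjusted p = 0.0582). Among the alternatives, it was called higher by edgeR with library size scaling, without the low-count filter, with robust dispersion estimates, with a block that pairs libraries of unlike replicate number and without 79-week replicate 2. Its adjusted p was between 0.00844 and 0.0389 in these 5 settings and reached nearly 1 over the others.

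Because both genes were counted in the same libraries, their ratio needs no scaling between libraries. Each 7-week library held 3.89 and 3.55 reads of Camkk2 per read of Camkk1, and each 79-week library held 1.92 and 1.84. The change was -49.4%, with no overlap between ages, and the ratio does not give the ratio of molecules, since transcript lengths differ. With 2 libraries per age the smallest p of an exact two-sided permutation test is 0.333, so the ratios here are given without a test. In RefSeq, Camkk2 overlaps P2rx4, which encodes an ion channel opened by ATP, and the strand setting of the counting is not given, so reads from the shared stretch may not have been assigned. P2rx4 stood at 28.4 and 35.9 CPM at 7 weeks and at 42.0 and 37.4 CPM at 79 weeks, and was not called (adjusted p = 0.17). Long noncoding RNA genes overlap other members, among them Camkk1 (4732414G09Rik), Camk4 (2310026I22Rik) and Camk2d (Gm15551). These were not among the tested genes, and the same limit on assigned reads may apply there.

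The stretches just before the transcription starts of the CaMKK genes are printed because the log2 fold changes of these paralogs lie on opposite sides of 0, with that of Camk2d added as the other called member whose sequence is shown. They come from RefSeq on build GRCm38.p6, which is not the mm9 build of the counts, and each is 250 bases long and reads 5′ to 3′ towards the start. Capitals mark GC boxes (GGGCGG or its reverse complement) as runs of 6 and a half-site of the CREB response element (TGACG or its reverse complement) as a run of 5.
Camkk2, chr5:122779411-122779660, minus strand: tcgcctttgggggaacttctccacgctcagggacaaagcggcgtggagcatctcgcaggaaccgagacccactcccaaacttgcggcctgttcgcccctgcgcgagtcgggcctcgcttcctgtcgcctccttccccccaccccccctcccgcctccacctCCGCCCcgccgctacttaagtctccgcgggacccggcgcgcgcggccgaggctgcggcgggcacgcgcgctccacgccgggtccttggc
Camkk1, chr11:73018738-73018987, plus strand: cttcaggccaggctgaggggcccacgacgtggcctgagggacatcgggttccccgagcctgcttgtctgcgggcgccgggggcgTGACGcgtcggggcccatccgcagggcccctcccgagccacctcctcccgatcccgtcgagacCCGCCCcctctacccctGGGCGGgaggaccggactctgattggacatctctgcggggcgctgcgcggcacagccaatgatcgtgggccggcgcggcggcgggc
Camk2d, chr3:126596701-126596950, plus strand: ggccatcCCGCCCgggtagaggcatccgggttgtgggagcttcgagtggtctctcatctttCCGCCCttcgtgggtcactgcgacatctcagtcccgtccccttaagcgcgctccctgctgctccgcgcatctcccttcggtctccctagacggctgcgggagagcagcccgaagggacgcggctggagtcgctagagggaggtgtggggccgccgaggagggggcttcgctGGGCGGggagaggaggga

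All of these windows are rich in G and C, at 72.4% for Camkk2, 74.4% for Camkk1 and 68.4% for Camk2d, beside a median of 52.4% over 32851 windows of the same length. Camkk2 held 1 GC box, Camkk1 held 2 and Camk2d held 3, while 32.7% of all windows held at least 1. The half-site appeared in the window of Camkk1, ending 161 bases before the start, and not in those of Camkk2 and Camk2d, and 17.8% of all windows held it on either strand. The full CREB response element, TGACGTCA, which contains the half-site, was in none of the 8 windows matched to 7 members and in 1.55% of all windows. Of the other matched members, Camk1 had the half-site and Camk1d, Camk1g and Camk2b did not. The called member Camk4, and Camk2a and Camk2g, had no matched window, so these motifs were not searched for in them. A match is a run of letters and not evidence of binding.

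Downstream of CaMKK, Camk4 (ENSMUSG00000038128), which encodes the nuclear kinase CaMKIV, stood at 1351 and 1314 CPM in the 7-week libraries and at 822 and 775 CPM in the 79-week libraries. The replicates of each age lay close together and the ages were far apart. Its mean went from 1332 ± 26.7 to 798 ± 33.6 CPM (SD, n = 2 per age), and it fell by 40.1% (log2 fold change -0.74, SE 0.06, adjusted p = 0.00318). Camk4 took 39.8% and 40.2% of the reads of the 10 members at 7 weeks and 31.6% and 30.1% at 79 weeks.

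The reads of Camk4 and Camkk2 kept an almost fixed proportion, which restates their near-equal log2 fold changes of -0.74 and -0.73. With 2 libraries per age, whether the genes vary together cannot be shown. There were 5.43 reads of Camk4 per read of Camkk2 in each 7-week library, and 5.29 and 5.48 in the 79-week libraries, so the ages overlapped in this ratio while each gene alone fell. Camkk2 and Camk4 had the 15th and 16th smallest p-values of the 15292 genes, a description only, since the list was chosen with this contrast known. Of all 15292 genes, 237 (1.55%) had a log2 fold change at or below that of Camkk2. Among 2543 genes whose mean reached 100 CPM, a limit chosen after the values were seen, 5 did. The other members of that group were Car4, a carbonic anhydrase gene, at -0.76, Mal, a gene of myelin-forming cells, at -0.75, and Ptprt, a receptor phosphatase gene, at -0.90.

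Without 7-week replicate 1, edgeR called 0 of all genes (2610 at an unadjusted p under 0.05), and the log2 fold changes of Camk4 and Camkk2 were -0.72 and -0.71 (adjusted p = 0.0879 for both). DESeq2 on the same 3 libraries called both lower (adjusted p = 8.26e-15 and 2.28e-06). Over 18 alternatives in all, the log2 fold change ran from -0.79 to -0.68 for Camk4 and from -0.80 to -0.66 for Camkk2, with adjusted p-values from 1.1e-35 to 0.0879 and from 1.76e-30 to 0.0879. With 79-week replicate 1 left out, edgeR gave -0.78 for Camk4 and -0.80 for Camkk2 and called both (adjusted p = 1.51e-07 and 1.22e-07).

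**Figure D2:**
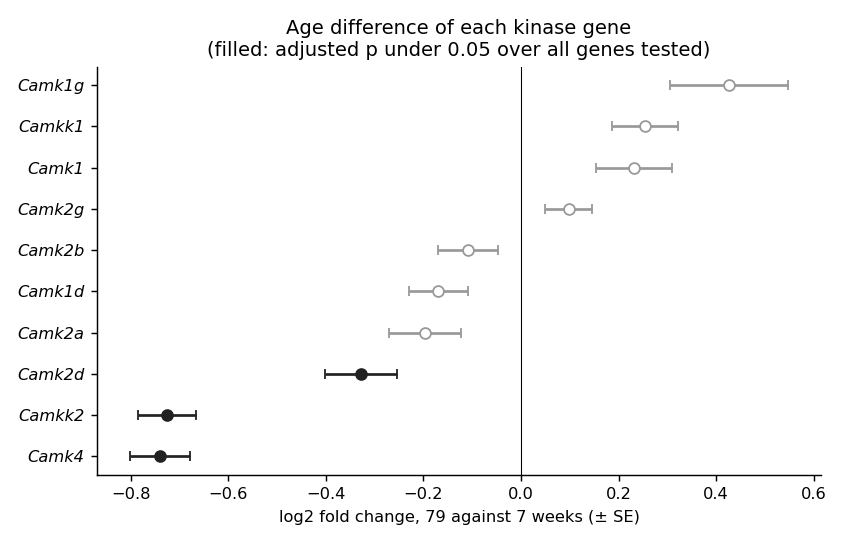
Log2 fold change of each member, 79 against 7 weeks, from the edgeR fit over all genes, with bars of 1 SE and filled points for genes with an adjusted p under 0.05. Camk4 and Camkk2 lie at -0.74 and -0.73, Camk2d at -0.33, and the remaining 7 members between -0.20 and 0.43.

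The CaMKI genes encode the cytoplasmic kinases that CaMKK activates, known in neurons for roles in axon and dendrite growth. Of the 3 among the members, 0 were called by edgeR, DESeq2 or limma-voom. Pnck, the CaMKI beta gene, is not a member. It was called higher by edgeR (adjusted p = 0.0389) but not by DESeq2 (adjusted p = 0.068). Camk1 (ENSMUSG00000030272) stood at 51.6 and 47.8 CPM at 7 weeks and at 55.9 and 60.6 CPM at 79 weeks (log2 fold change 0.23, SE 0.08, adjusted p = 0.109), and of the 18 alternatives edgeR without the low-count filter called it higher (adjusted p = 0.0418). Camk1g (ENSMUSG00000016179), the member with the fewest reads, stood at 12.90 and 12.93 CPM at 7 weeks and at 15.9 and 18.8 CPM at 79 weeks (log2 fold change 0.43, SE 0.12, adjusted p = 0.0715). Camk1d (ENSMUSG00000039145) stood at 87.7 and 91.9 CPM at 7 weeks and at 81.7 and 78.2 CPM at 79 weeks (log2 fold change -0.17, SE 0.06, adjusted p = 0.125). The values of Camk1 and Camk1g thus lay above the young libraries and those of Camk1d below them. The summed CPM of the 3 genes was 152 and 153 at 7 weeks and 154 and 157.5 at 79 weeks. Camk1g was called higher by edgeR with library size scaling, without the low-count filter and, at 0.54 with an adjusted p of 0.0133, when 79-week replicate 1 was left out, while its adjusted p over all alternatives ran from 0.0133 to nearly 1. In RefSeq Camk1 overlaps the DNA repair gene Ogg1, which stood at 3.07 to 4.14 CPM.

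Of the CaMKII subunits, 1 of 4 was called. Camk2d (ENSMUSG00000053819), the delta subunit, stood at 289 and 251.5 CPM at 7 weeks and at 223 and 207 CPM at 79 weeks. The ages did not overlap, but the young libraries lay further apart than the aged ones. Its log2 fold change was -0.33 (SE 0.07, adjusted p = 0.0381). The call ended with library size scaling (-0.27, adjusted p = 0.0626). It also ended when either young library was left out, with -0.23 (adjusted p = 0.214) for replicate 1 and -0.43 (adjusted p = 0.0599) for replicate 2. DESeq2 called it with all libraries (adjusted p = 0.0015) but not without 7-week replicate 1 or 79-week replicate 2 (adjusted p = 0.502 and 0.185). Its adjusted p over the alternatives ran from 5.69e-06 to 0.502.

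Camk2b (ENSMUSG00000057897), the beta subunit, which binds actin, stood at 981.8 and 932.2 CPM at 7 weeks and at 870.4 and 904.5 CPM at 79 weeks (log2 fold change -0.11, SE 0.06, adjusted p = 0.305). Camk2a (ENSMUSG00000024617), the alpha subunit, stood at 157 and 150 CPM at 7 weeks and at 124 and 143.5 CPM at 79 weeks (log2 fold change -0.20, SE 0.07, adjusted p = 0.14). Its lowest value was in 79-week replicate 1, and without 79-week replicate 2 it was called lower (-0.31, adjusted p = 0.0109), as it was without the low-count filter (adjusted p = 0.016), while its adjusted p over all alternatives ran from 0.0109 to nearly 1. Camk2g (ENSMUSG00000021820), the gamma subunit, stood at 155 and 160 CPM at 7 weeks and at 168 and 169 CPM at 79 weeks (log2 fold change 0.10, SE 0.05, adjusted p = 0.246). These 3 subunits were not called.

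Within the reads of the 4 CaMKII genes, the share of Camk2d was 18.3% and 16.8% at 7 weeks and 16.1% and 14.6% at 79 weeks. The share of Camk2g was 9.79% and 10.7% at 7 weeks and 12.1% and 11.9% at 79 weeks. Camk2b kept the bulk of the reads in every library, at 62.0% to 63.5%, and the share of Camk2a ranged from 8.94% to 10.1% with overlapping ages. There were 1.87 and 1.57 reads of Camk2d per read of Camk2g at 7 weeks and 1.33 and 1.22 at 79 weeks. These shares are of reads and not of subunits.

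**Figure D3:**
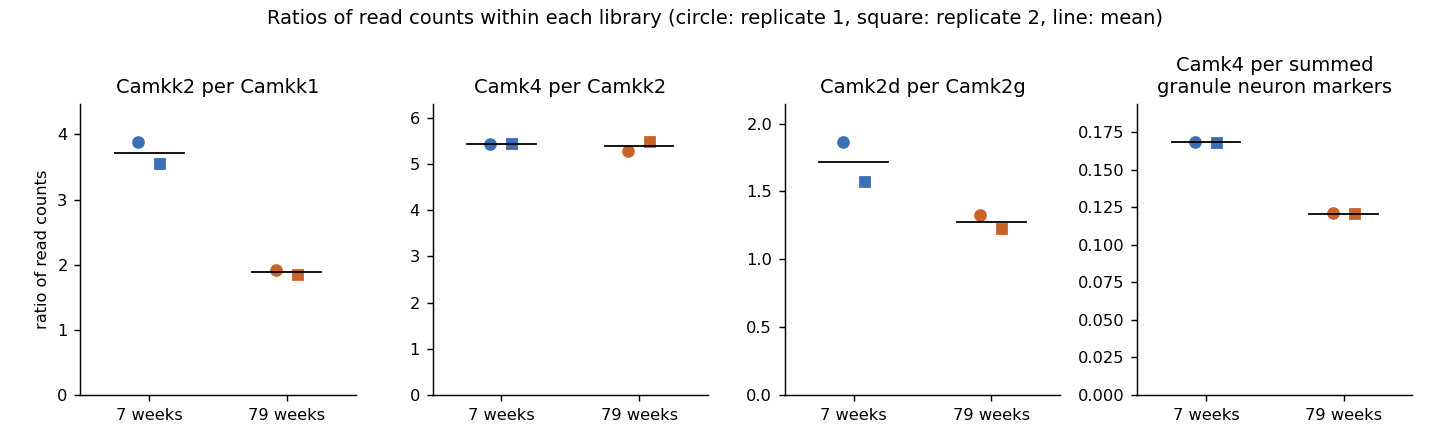
Ratios of read counts within each library (linear axes from 0), with 7 weeks in blue, 79 weeks in orange, circles for replicate 1, squares for replicate 2 and a line at the mean. Camkk2 per Camkk1 goes from 3.89 and 3.55 to 1.92 and 1.84, Camk4 per Camkk2 stays between 5.29 and 5.48, and Camk4 per summed granule neuron markers goes from 0.169 and 0.168 to 0.121 and 0.120.

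Some markers of granule neurons, in which Camk4 is known to be abundant, were lower too. Of 12 granule markers edgeR called 5 lower and 1 higher and left 6 uncalled, with a median log2 fold change of -0.23 and a range from -0.57 to 0.33. DESeq2 called 8 lower and 1 higher, and limma-voom 7 lower and 1 higher. The log2 fold change was below 0 for 10 of the 12. Their summed level was 8013 and 7835 CPM at 7 weeks and 6789 and 6445 CPM at 79 weeks. Per read of these markers Camk4 had 0.169 and 0.168 reads at 7 weeks and 0.121 and 0.120 at 79 weeks, a change of -28.3%, and Camkk2 changed by -27.6% on the same measure, both without a test. The marker with the lowest log2 fold change was Gabra6, a GABA receptor subunit gene particular to granule neurons, at -0.57 (SE 0.06, adjusted p = 0.00402). Relative to Gabra6 alone, Camk4 went from 1.52 and 1.51 reads to 1.39 and 1.31, and Camkk2 from 0.280 and 0.278 reads to 0.263 and 0.239, in both cases without overlap between ages. Camk2d per read of granule markers was 0.0361 and 0.0321 at 7 weeks and 0.0329 and 0.0322 at 79 weeks, with overlapping ages. The part of the granule neurons in these differences was not tested.

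Of 12 Purkinje cell markers 6 were called lower, 0 higher and 6 were not called (median log2 fold change -0.18), with sums of 12440 and 13082 CPM at 7 weeks and 11372 and 11576 CPM at 79 weeks. Of 10 inhibitory interneuron markers 0 were called by edgeR (2 at an unadjusted p under 0.05) and 1 by DESeq2, with a median of -0.00. Of 9 oligodendrocyte markers 5 were lower, 0 higher and 4 not called (median -0.68), with sums of 6292 and 5913 CPM at 7 weeks and 3770 and 5302 CPM at 79 weeks. Of 9 microglia markers 6 were higher, 0 lower and 3 not called (median 0.92), of 9 markers of Bergmann glia and astrocytes 2 were higher, 1 lower and 6 not called (median -0.08), and of 6 markers of unipolar brush cells 2 were higher, 3 lower and 1 not called (median -0.21). Of 8 endothelial and pericyte markers 0 were called by edgeR or DESeq2 (2 at an unadjusted p under 0.05), and of 8 markers of meninges and fibroblasts 1 was lower, 0 higher and 7 not called. Of 10 choroid plexus markers 7 were tested, and edgeR called 0 (7 at an unadjusted p under 0.05) and DESeq2 1. Forebrain neuron markers, which could carry Camk2a in with stray tissue, summed to 80.7 to 91.7 CPM, of which 69.9 to 79.4 CPM was Prox1, a gene that cerebellar cells may express too. Of 10 forebrain markers 6 were tested and 0 called by edgeR or DESeq2 (1 at an unadjusted p under 0.05). Of 12 brainstem and midbrain markers 2 were tested, and the untested ones had 0 to 16 reads per library. Th was called higher by edgeR but not by DESeq2, at 1.68 and 7.91 CPM at 7 weeks and 22.8 and 36.3 CPM at 79 weeks. Slc17a6 was not called, with 5 and 141 reads at 7 weeks and 28 and 33 at 79 weeks, so 7-week replicate 2 stood apart. The granule markers summed to at least 6445 CPM and the Purkinje markers to at least 11372 CPM in every library, though single ones were far lower. The part of the other cell types in the kinase values was not tested.

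Calm2 and Calm3 encode calmodulin itself, and edgeR called neither, with log2 fold changes of -0.19 (adjusted p = 0.0782) and -0.07 (adjusted p = 0.472). Neither DESeq2 nor limma-voom left both of them uncalled, and the calls were of lower levels. The 2 genes for inhibitor proteins of CaMKII were not called by edgeR, DESeq2 or limma-voom, and 0 had an unadjusted p under 0.05. Camk2n1 stood at 234 and 249 CPM at 7 weeks and at 240.5 and 225 CPM at 79 weeks, and Camk2n2 stood at 114 and 118 CPM at 7 weeks and at 116 and 115 CPM at 79 weeks. Of 5 genes for proteins that bind calmodulin and buffer it or its neighbours at the membrane, edgeR, DESeq2 and limma-voom called 0 (3 at an unadjusted p under 0.05), and the most abundant were Gap43 (log2 fold change -0.21, adjusted p = 0.0888) and Marcks (-0.25, adjusted p = 0.0604).

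Among 14 tested genes of other calmodulin-dependent and related kinases, 2 rose, 2 fell and 10 were not called. Dclk1, a doublecortin-like kinase whose catalytic domain resembles that of CaMK, stood at 572 and 545 CPM at 7 weeks and at 366 and 387 CPM at 79 weeks (log2 fold change -0.57, SE 0.06, adjusted p = 0.00508), and was called in 17 of 18 alternatives, but not by edgeR without 7-week replicate 1 (adjusted p = 0.0976). Cask, a synaptic scaffold with a CaMK-like domain, had a log2 fold change of -0.38 (adjusted p = 0.0143). Eef2k, which encodes the calmodulin-dependent kinase that slows protein synthesis through elongation factor eEF2, stood at 64.3 and 66.8 CPM at 7 weeks and at 82.8 and 88.2 CPM at 79 weeks (log2 fold change 0.38, adjusted p = 0.0165). Pnck, the CaMKI beta gene, stood at 34.5 and 32.1 CPM at 7 weeks and at 45.3 and 41.3 CPM at 79 weeks (log2 fold change 0.38, adjusted p = 0.0389). The calls of Cask, Eef2k and Pnck held in 12, 12 and 10 of 18 alternatives, with adjusted p-values up to 0.435, 0.457 and 0.862. Each was lost in edgeR or DESeq2 whichever of the 4 libraries was left out, and that of Pnck also in DESeq2 on all libraries (adjusted p = 0.068).

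Phosphatases remove what the kinases add, and calcineurin, like CaMK, is switched on by calmodulin. Of 12 genes of these phosphatases and their regulators 1 rose, 2 fell and 9 were not called. Ppp3ca, the main catalytic subunit gene of calcineurin in brain, stood at 1011 and 963 CPM at 7 weeks and at 820 and 771 CPM at 79 weeks (log2 fold change -0.31, SE 0.06, adjusted p = 0.028). Ppp3r1, its regulatory subunit gene, had a log2 fold change of -0.24 (adjusted p = 0.0333). Ppp1r1b, which encodes the protein phosphatase inhibitor DARPP-32, stood at 167.6 CPM in each 7-week library and at 208 and 192 CPM at 79 weeks (log2 fold change 0.26, adjusted p = 0.0325). Their calls held in 16, 10 and 11 of 18 alternatives, with adjusted p-values up to 0.212, 0.705 and 0.63. That of Ppp3ca ended in edgeR when either young library was left out (adjusted p = 0.212 and 0.106). Those of Ppp3r1 and Ppp1r1b were lost in edgeR or DESeq2 whichever library was left out, and that of Ppp3r1 also with library size scaling (adjusted p = 0.0638).

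Of 11 genes for targets of CaMKK and CaMKI, 1 rose, 1 fell and 9 were not called. Arhgef7, an exchange factor for Rac that CaMKI phosphorylates in neurons, had a log2 fold change of -0.33 (adjusted p = 0.0344), and Prkag2, a regulatory subunit gene of AMPK, of 0.30 (adjusted p = 0.0405). These calls held in 13 and 10 of 18 alternatives, with adjusted p-values up to 0.309 and 0.859. That of Arhgef7 ended with library size scaling (adjusted p = 0.0517) and, in edgeR or DESeq2, without any one library other than 79-week replicate 2. That of Prkag2 was lost whichever library was left out, in edgeR or DESeq2, and in DESeq2 on all libraries (adjusted p = 0.0536). Of 15 synaptic targets and anchors of CaMKII, edgeR called 1 higher and 0 lower (4 lower at an unadjusted p under 0.05), while DESeq2 called 0 higher and 3 lower. The higher gene was Cacnb1, a calcium channel subunit, at 28.7 CPM in each 7-week library and 37.5 and 36.7 CPM at 79 weeks (log2 fold change 0.37, adjusted p = 0.031), a call that held in 11 of 18 alternatives (adjusted p up to 0.86) and was lost whichever library was left out, in edgeR or DESeq2, and in DESeq2 on all libraries (adjusted p = 0.0926).

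Transcription regulators on which CaMK acts, among them CREB, its coactivators, MEF2 factors and class IIa histone deacetylases, had 0 of 14 tested genes called by edgeR, DESeq2 or limma-voom (4 at an unadjusted p under 0.05). The most abundant were Mef2d (log2 fold change -0.13, adjusted p = 0.145) and the CREB coactivator gene Crtc1 (0.01, adjusted p = 0.914). Of 13 tested genes known to respond to CREB, 5 were higher, 1 lower and 7 not called, with a median log2 fold change of 1.16 and a range from -0.66 to 3.21. Nr4a2, a nuclear receptor gene, stood at 18.8 and 24.0 CPM at 7 weeks and at 95.3 and 68.4 CPM at 79 weeks (log2 fold change 1.92, SE 0.18, adjusted p = 0.00328). Sik1, a kinase gene that CREB induces, stood at 8.79 and 8.35 CPM at 7 weeks and at 26.2 and 18.5 CPM at 79 weeks (1.38, SE 0.18, adjusted p = 0.00793).

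Besides these, Fos and Fosb, the list had 2 called genes, namely the nuclear receptor gene Nr4a1, higher at a log2 fold change of 1.65 (adjusted p = 0.031), and Vgf, a neuropeptide precursor gene, lower at -0.66 (adjusted p = 0.0493). Their calls held in 11 and 9 of 18 alternatives, with adjusted p-values up to 0.92 and 0.544. That of Nr4a1 ended in DESeq2 (adjusted p = 0.0594), limma-voom (0.0685) and edgeR with robust dispersions (0.306), and in both edgeR and DESeq2 when either young library was left out. That of Vgf ended in limma-voom (adjusted p = 0.0502), in edgeR with robust dispersions, upper-quartile or library size scaling (0.0563, 0.054 and 0.0574), in both tools when either young library was left out, and in DESeq2 without 79-week replicate 1 (0.544). The early genes Fos and Fosb spread more between libraries. Fos stood at 8.35 and 18.1 CPM at 7 weeks and at 116.5 and 50.6 CPM at 79 weeks (log2 fold change 2.62, SE 0.44, adjusted p = 0.016), and Fosb stood at 0.623 and 0.917 CPM at 7 weeks and at 10.05 and 4.58 CPM at 79 weeks (3.21, SE 0.45, adjusted p = 0.0103). Nr4a2, Sik1, Fos and Fosb were each highest in the same aged library, replicate 1, which stood apart in choroid plexus markers. The calls of Nr4a2, Sik1, Fosb and Fos held in 17, 16, 16 and 13 of 18 alternatives, with adjusted p-values up to 0.0893, 0.118, 0.137 and 0.435. All of these calls ended in edgeR without 7-week replicate 1, and those of Sik1, Fosb and Fos also without 7-week replicate 2 (adjusted p = 0.0759, 0.0759 and 0.0756). The call of Fos also ended in DESeq2 without 7-week replicate 1 (adjusted p = 0.435), with robust dispersion estimates (adjusted p = 0.238) and in DESeq2 without 79-week replicate 1 (1.93, adjusted p = 0.417). Kinase activity was not measured, and the link between Camk4 and these genes was not tested.

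**Figure D4:**
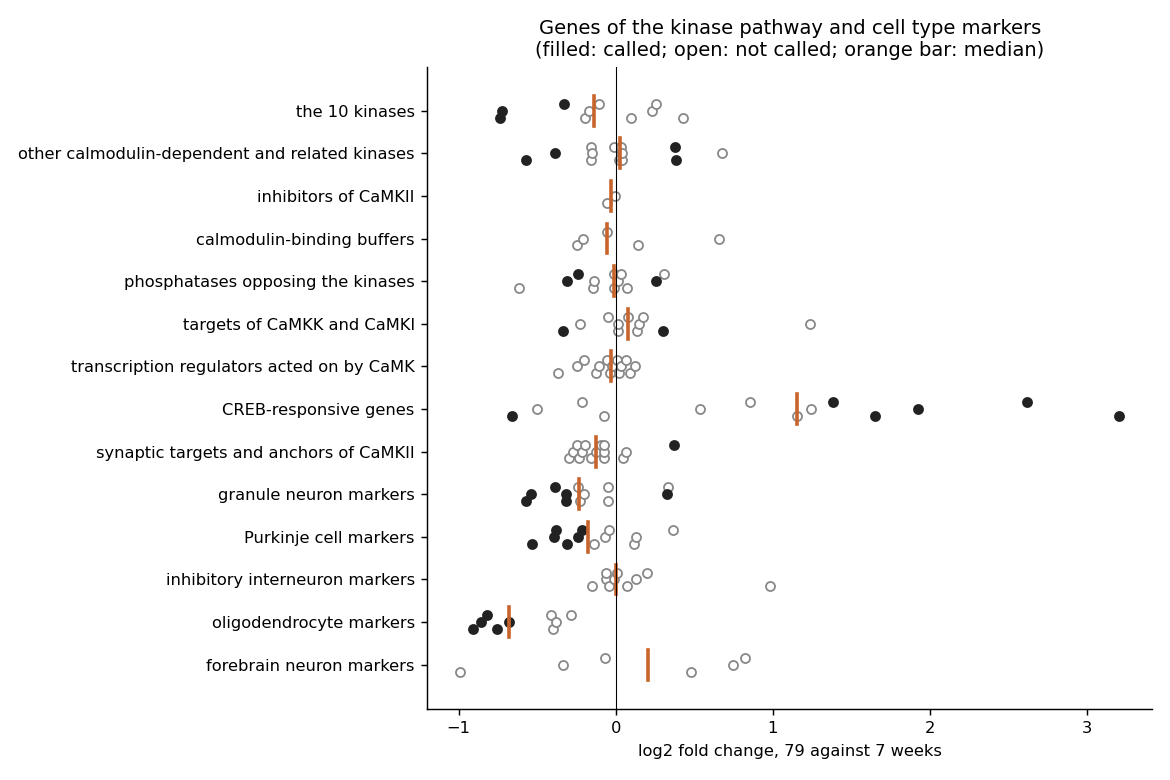
Log2 fold change, 79 against 7 weeks, of the members, of 8 lists of pathway genes and of 5 of the 12 marker lists, 1 point per tested gene, filled where called and open where not, with an orange bar at the median. The CREB-responsive genes have a median of 1.16, the oligodendrocyte markers one of -0.68, and the transcription regulators lie within -0.36 to 0.12.

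**Figure D5:**
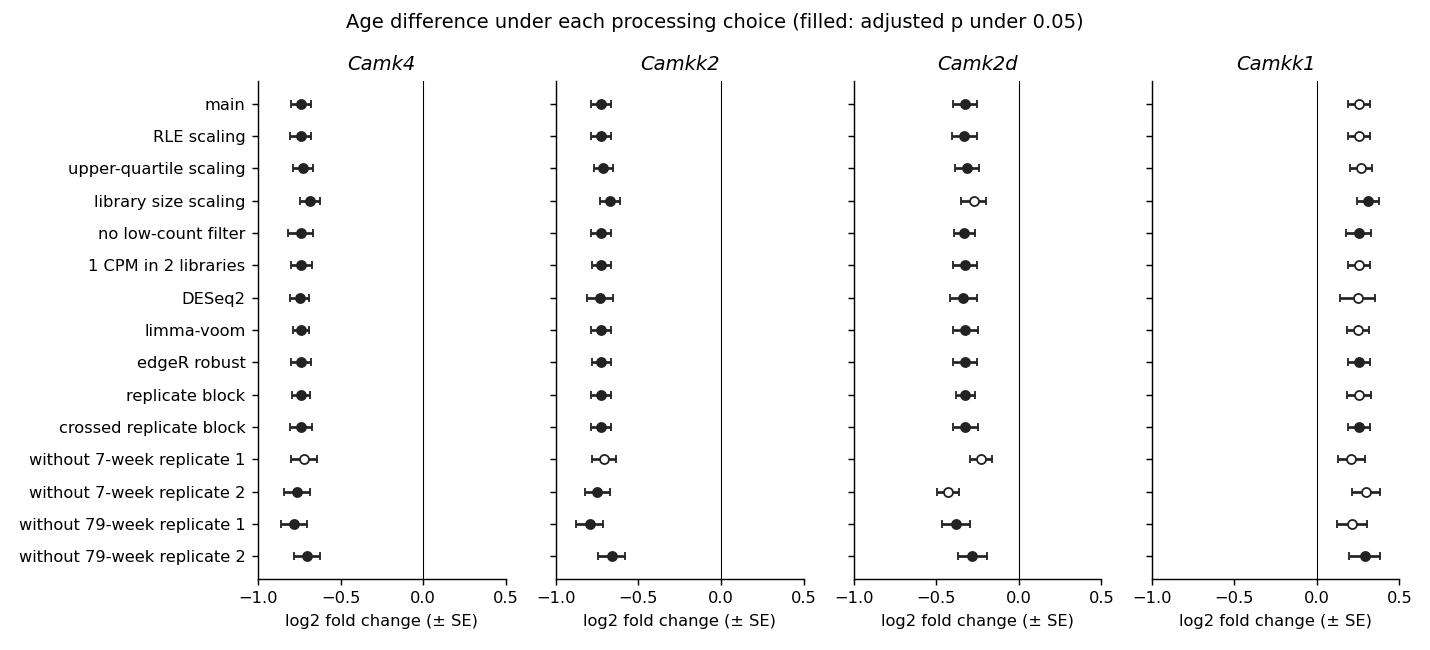
Log2 fold change with bars of 1 SE for Camk4, Camkk2, Camk2d and Camkk1 under the reported fit and 14 alternatives, filled where the adjusted p was under 0.05. Camk4 and Camkk2 stay between -0.80 and -0.66 and lose the call without 7-week replicate 1, Camk2d loses it in 3 of these settings, and Camkk1 stays above 0 in each.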

How the data were processed

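Messenger RNA of cerebellum was sequenced at 7 and 79 weeks, 2 libraries each. The authors deposited raw read counts per Ensembl gene; cutadapt, STAR, HTSeq and build mm9 are named in the submitters' processing notes. The sources used here give no versions, annotation release or strand setting. HTSeq summary lines were removed before totals were taken. Symbols matched 32919 of 37991 identifiers.

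Low-count genes were removed in R 4.3.3 with filterByExpr of edgeR 4.0.16 (minimum count 10, minimum total 15), leaving 15292, and scaled by TMM (factors 0.981 to 1.02). The test of 79 against 7 weeks was edgeR's quasi-likelihood F test with no covariate, its p-values adjusted by Benjamini-Hochberg across the 15292 genes and called under 0.05. The test was checked on simulated data. The SE is the size of the log2 fold change divided by the root of F. Replicates differed beyond counting noise (mean chi-square per gene 6.45 at 7 weeks and 18.5 at 79 weeks). Single genes can raise this mean, such as the choroid plexus marker Ttr, with 97720 and 50 reads in the 79-week libraries.

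The members, 9 pathway lists (94 genes) and 12 marker lists (114 genes) were chosen with earlier results of these data known. The results for 1 pathway list are in part not reported here. Named from each pathway list were up to 4 called genes by smallest adjusted p, or else the 2 most abundant. Car4, Mal, Ptprt, P2rx4, Ogg1, Calm2, Calm3, Gabra6, Prox1, Th, Slc17a6, Nr4a1 and Vgf fall outside that rule and were picked with their values in view. The alternatives comprised RLE and upper-quartile scaling, scaling by library size, no low-count filter, 1 CPM in 2 libraries, DESeq2 1.42.0, limma-voom (limma 3.58.1), robust dispersions, a replicate block, and each library left out in edgeR. After seeing the data, a crossed block and the DESeq2 fits lacking 1 library were added. With a library left out, the remaining library of its age is assumed to vary like the others. Promoter windows came from RefSeq GRCm38.p6 and matched 7 of the 10 members.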

Additional observations from a re-analysis of the deposited data

How the results depend on the processing

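All 10 members kept the sign of their log2 fold change in each of 18 alternatives. The ages did not overlap in any member, and every alternative reused the same libraries. The sign was thus largely fixed in advance, and nothing is read from its constancy. The count of genes called was 1352, 3051 without the low-count filter, and 0 to 2425 when a library was left out in edgeR or DESeq2: edgeR called 0 and 175 with the first or second young library missing and 1579 and 2425 with the first or second aged one, and DESeq2 called 243, 425, 381 and 654 in that order. The count of members called higher, 0 in the reported fit, was 2 with library size scaling, 3 without the low-count filter, 1 with robust dispersions, 1 with the crossed block, and 0 to 1 with a library left out. The count called lower, 3 in the reported fit, was 0 to 4 with a library left out. The cause was not tested. With the replicate number as a replicate block, 1396 genes were called, 3 members lower and 0 higher. The deviations of same-numbered libraries from the mean of their age had a correlation of -0.106 over genes. With 2 libraries per age this cannot show whether the numbers mark a pairing. The crossed replicate block called 2014 genes. CaMKII shares per kilobase of exon were not run, as exon lengths were not used here. Members had 207 to 27220 reads per library, with Camk1g the lowest, and 2 libraries per age limit every test.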
